A study of Arabidopsis thaliana with 3 samples.

Results

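The wounded leaf explant at day 2 was compared with the leaf at the start, T0, in Arabidopsis thaliana of accession Col-0. The comparison uses 2 of the 3 RNA-seq libraries of the study, chosen by their treatment labels, with 1 library on each side. The explant library came from first-pair rosette leaves, cut from seedlings and kept on B5 medium without any carbohydrate, 2 days after wounding. The T0 library came from the same kind of leaf of the same accession, is labelled as a control and carries no treatment time. Seedlings had grown on MS medium in long days, and the growth text is the same for all libraries. Wound site and remaining leaf are both mentioned in the design text of the series; which of them a library holds is not labelled. A control sampled at day 2, called the later control, whose further handling the labels do not give, served only as a side value; the plots name it the 2-day control. All libraries carry the same age label of 12 days after sowing, so wounding, culture on sugar-free medium, leaf part, time and leaf age cannot be told apart between the explant and T0. In RNA from whole tissue, fewer cells of a type and less RNA per cell cannot be told apart either.

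A leaf in the light spends much of its messenger RNA on the photosynthetic apparatus. Light-harvesting proteins bind chlorophyll and pass energy to the photosystems, the Calvin cycle fixes carbon dioxide, and sugars made there feed respiration, growth and storage. A detached leaf is cut off from the transport of the plant; Arabidopsis leaf explants are known for forming new roots at the cut on hormone-free medium. Wounding is known to switch on cell wall repair, jasmonate signalling and defence proteins.

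The deposited values were raw read counts per gene. They summed to 46713257 in the wounded explant, 45097732 in the later control and 43099934 at T0. Of the genes, 23909 had a count above 0 in the wounded explant, 22476 in the later control and 22535 at T0. Levels are given as CPM, counts per 1000000 counts of the library total, with each total multiplied by its factor from the trimmed mean of M-values (TMM). The factors were 1.08 for the wounded explant, 1.06 for the later control and 0.879 for T0. To be called higher or lower, a gene needed the whole exact 95% counting interval of its explant over T0 ratio to lie past 2-fold. Ratios carry that interval in brackets. It covers counting error only: with 1 library a side there is no replicate check, no standard error and no p-value, and a call compares these libraries, not the conditions. Genes with under 30 counts over the 3 libraries were not tested, and counts per gene list below are of the members tested, which leaves out members that are low everywhere. A gene whose other libraries summed to under 30 counts passed the filter through 1 library only, which tilts it toward a call on that side. Among the genes called higher 652 passed through the explant only, and among those called lower 173 passed through T0 only. Counts of such members are a description and support nothing. Where a gene list below gives no number of such members on a side, it held at most 1 there. For a gene at 0 counts in 1 of the libraries, "at least" marks a bound that puts 3 counts in its place there.

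Of the 20109 genes tested, 3570 were higher in the explant, which is 17.8%, and 2681 were lower, which is 13.3%. The other 13858 were neither. Every count of list members below is to be read against these shares over all genes. The genes called higher made up 19.3% of all counts in the wounded explant, 10.1% in the later control and 4.13% at T0. Those called lower held 11% of the counts in the wounded explant, 19.3% in the later control and 34.5% at T0. The genes that were lower had thus held more of the T0 library than the genes that were higher came to hold in the explant. The median call on the higher side was 4.32-fold, and on the lower side 3.82 times; 836 genes were over 8-fold higher and 407 over 8 times lower. The T0 library was also the more concentrated one: 50% of the counts lay in 1821 genes in the wounded explant, 1777 in the later control and 1284 at T0. Ranked by level per length, 69 of the 100 leading genes at T0 were lower in the explant and 0 were higher. Of the 100 leading genes in the explant, 25 were higher and 21 were lower than at T0. Each ranking used a library that also enters the calls. That tilts the leading genes at T0 toward lower calls and those in the explant toward higher calls. Both splits are thus a description and support nothing. Scaling enters here, because the library totals alone, without TMM, shift the median log2 ratio of all genes by 0.289, to 0.315, and change the calls to 4646 higher and 1983 lower. The share of calls that were higher was 57.1% with TMM and 70.1% with library totals.

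**Figure D1:**
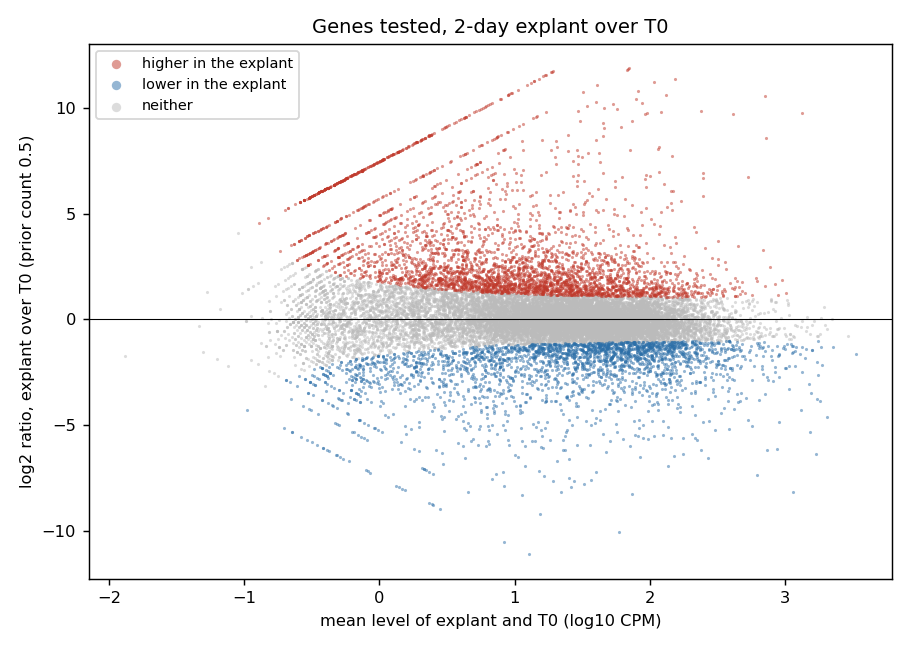
Each point is 1 of the tested genes, with its mean level in the explant and T0 libraries on the horizontal axis (log10 CPM) and its log2 ratio of explant over T0 on the vertical axis; red points were called higher in the explant (3570), blue points lower (2681), grey points neither. The 1 gene with 0 counts in both libraries is not drawn, and the blue points reach farther to the right, into the most abundant genes.

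The genes that gained most of the library were wall proteins, a lipid transfer-like protein, a lipoxygenase, a plasma membrane proton pump and enzymes of nitrogen assimilation, and those that lost most were light-harvesting proteins. Among the 10 largest gains, the extensins EXT4 (AT1G76930, also named EXT1) and EXT3, structural glycoproteins of the wall, were 861-fold and 1539-fold higher; AT4G12490, a lipid transfer-like protein, had 1449 CPM in the wounded explant, 24.2 CPM in the later control and 3.80 CPM at T0. AT5G64120, a class III peroxidase, had 1057 CPM in the wounded explant, 53.2 CPM in the later control and 9.84 CPM at T0. In these 4 genes the explant stood far above both controls, and the later control above T0. LOX2, the plastid lipoxygenase of jasmonate synthesis, had 1476 CPM in the wounded explant, 2044 CPM in the later control and 413 CPM at T0, so that its level was highest in the later control. AHA2 (listed as HA2), the proton pump that energises uptake at the plasma membrane, was 9.63-fold higher (9.35 to 9.91), with 1242 CPM in the wounded explant, 394 CPM in the later control and 129 CPM at T0. The other gains lay in nitrogen metabolism: the nitrite reductase NIR1 (3.15-fold), the NADH-dependent glutamate synthase GLT1 (2.34-fold), the asparagine synthetase ASN2 (5.50-fold) and the nitrate reductase NIA2, whose ratio of 1.51 (1.49 to 1.52) did not pass.

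Of the 10 largest losses, 9 were light-harvesting genes and 1 was ASN1. ASN1, an asparagine synthetase known to be induced in the dark and by lack of sugar, had 7.97 CPM in the wounded explant, 108 CPM in the later control and 2286 CPM at T0, 287 times lower in the explant (260.2 to 317). Its relative ASN2 went the other way, with 1297 CPM in the wounded explant, 452 CPM in the later control and 236 CPM at T0.

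**Figure D2:**
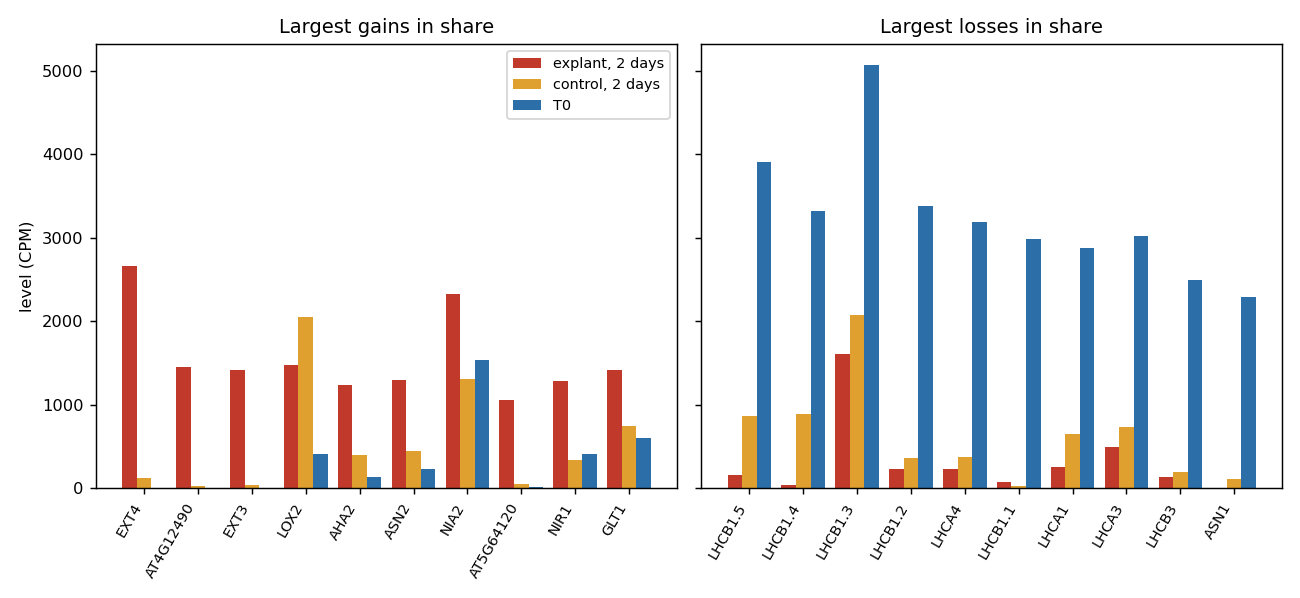
Bars give the level in CPM of the 10 genes with the largest gain (left panel) and the 10 with the largest loss (right panel) in share of the library, for the explant (red), the later control (yellow) and T0 (blue), 1 library each. EXT4 reaches 2659 CPM in the wounded explant against 3.09 CPM at T0, and the losses on the right are all light-harvesting genes except ASN1.

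Genes of the light reactions were lower almost throughout. Of 20 light-harvesting genes tested, 18 were lower in the explant and 0 were higher, with a median log2 ratio of -3.39 against 0.03 over all genes tested. Together they made up 0.684% of the counts in the wounded explant, 1.07% in the later control and 4.11% at T0, a share 6.01 times lower in the explant. Without the 100 most abundant genes of either library, which leaves few of these genes, it was 1.35 times lower. The antenna genes of photosystem II ranged widely. LHCB2.3 had 7.51 CPM in the wounded explant, 15.8 CPM in the later control and 1222 CPM at T0, 163 times lower (147 to 181), though 40.6% of its exon bases lie in another gene model too. LHCB2.2, with 20.1 CPM in the wounded explant, 19.0 CPM in the later control and 1454 CPM at T0, was 72.4 times lower, and LHCB3, with 129 CPM in the wounded explant, 196 CPM in the later control and 2496 CPM at T0, 19.3 times. For LHCB2.2 the explant and the later control were level, and both stood far under T0. LHCB1.4 (LHB1B1) was lower in the explant than in either control, with 39.5 CPM in the wounded explant, 888 CPM in the later control and 3315 CPM at T0, 84.0 times lower than at T0. LHCB1.5 (LHB1B2) had 159 CPM in the wounded explant, 863 CPM in the later control and 3899 CPM at T0, 24.5 times lower. LHCB1.1, LHCB1.2 and LHCB1.3 (CAB2, CAB3 and CAB1) are near-identical copies whose reads may be split between them; they were 40.9, 14.8 and 3.16 times lower. The antenna genes of photosystem I were lower by 11.2 times for LHCA1, 6.18 times for LHCA3 and 13.6 times for LHCA4.

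Subunits of the photosystems were lower by smaller folds. Of 24 tested, 22 were lower and 0 were higher (median log2 ratio -1.44), and their share of the counts was 1.21% in the wounded explant, 1.45% in the later control and 2.69% at T0. PSAD-2, the stromal docking subunit of photosystem I, had 136 CPM in the wounded explant, 177 CPM in the later control and 995 CPM at T0, 7.34 times lower (7.15 to 7.53). PSAF, which binds plastocyanin, was 3.53 times lower. With library totals 16 of the 24 were lower.

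Carbon fixation genes passed in neither direction but for 1. Of 20 Calvin cycle genes 0 were lower and 1 was higher, and their share of the counts was 1.73% in the wounded explant, 2.14% in the later control and 1.99% at T0. The 1 gene was RBCS1B, a small subunit of RuBisCO, with 683 CPM in the wounded explant, 707 CPM in the later control and 268 CPM at T0, 2.55-fold higher (2.49 to 2.604). RBCS1A, the abundant small subunit gene, had 1712 CPM in the wounded explant, 2001 CPM in the later control and 2394 CPM at T0, a ratio of 0.715 that did not pass. In photorespiration 3 of 15 were lower and 0 higher, with AGT, the serine-glyoxylate aminotransferase, at 770 CPM in the wounded explant, 1168 CPM in the later control and 1906 CPM at T0. None of these 3 passed with library totals.

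Pigment synthesis was lower in part. In chlorophyll synthesis 8 of 23 genes were lower and 0 higher, and the median log2 ratio was -0.83. PORA, the light-sensitive protochlorophyllide reductase of etiolated seedlings, had 5 counts in the wounded explant, 7 in the later control and 622 at T0, 165 times lower (70.2 to 509). HEMA1, the first committed enzyme of tetrapyrrole synthesis, had 206 CPM in the wounded explant, 120 CPM in the later control and 967 CPM at T0, 4.70 times lower, and CH1, which makes chlorophyll b, was 10.1 times lower. For HEMA1 and CH1 the explant lay above the later control and under T0. Of 10 chlorophyll breakdown genes 2 were higher and 0 lower, the chlorophyllase CLH1 at 4.02-fold and SGR2 (AT4G11910), a member of the stay-green family, at 23.9-fold (10.8 to 66.0). Carotenoid synthesis had 4 of 14 lower and 0 higher, among them ABA1, the zeaxanthin epoxidase, 10.4 times, and the carotenoid cleavage dioxygenase CCD4 (NCED4), 28.02 times. Of 31 starch genes 3 were higher and 6 lower, a split that became 6 and 1 with library totals. BAM5, a beta-amylase, had 49.0 CPM in the wounded explant, 12.1 CPM in the later control and 0.185 CPM at T0, 265-fold higher (129 to 661), and APL3, a subunit of the enzyme that makes ADP-glucose, was 7.33-fold higher. Of 6 plastid sigma factors, which direct the plastid RNA polymerase, 2 were lower, SIGE 9.68 times and SIG4 3.18 times.

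**Figure D3:**
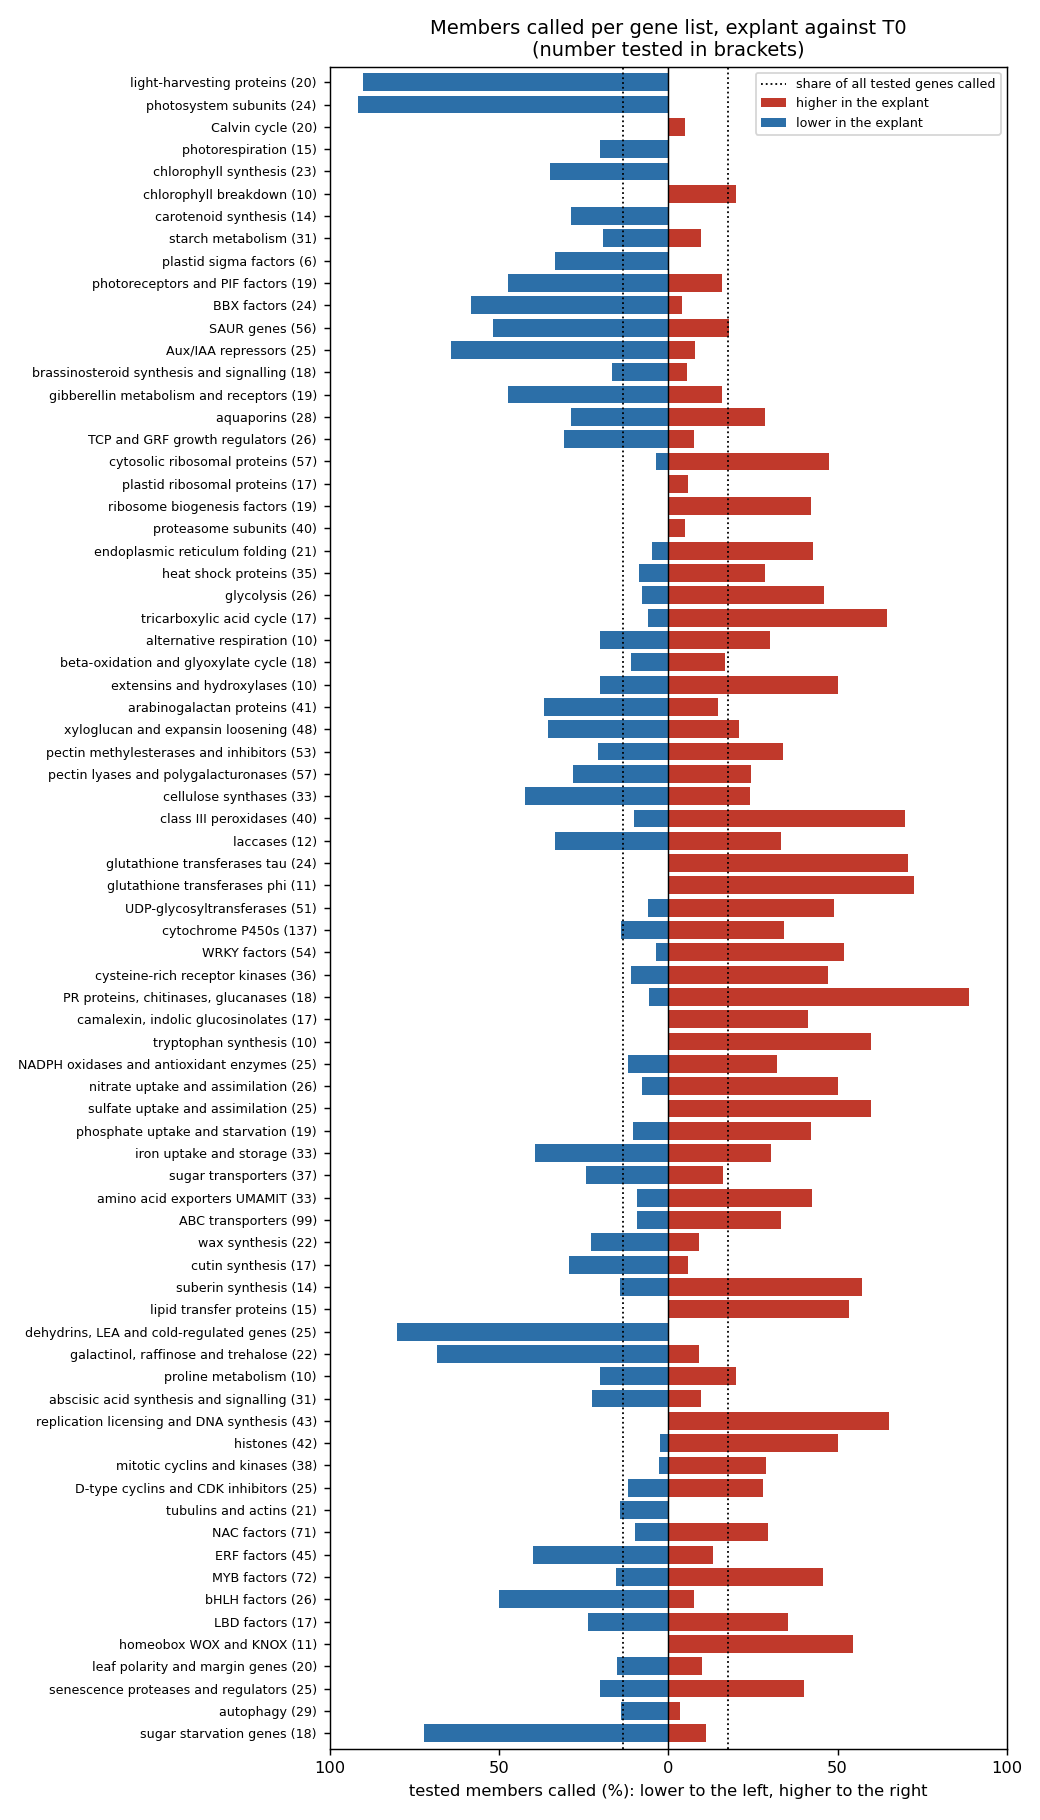
Bars give the percent of tested members of each gene list that were called lower in the explant (blue, to the left) or higher (red, to the right), with the number tested in brackets; dotted lines mark the same percent over all genes tested, 13.3% and 17.8%. Light-harvesting, photosystem, cold-regulated and sugar starvation lists reach farthest to the left, and pathogenesis-related proteins, glutathione transferases and peroxidases farthest to the right.

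Among light signalling factors more were lower than higher. Among 19 photoreceptors and PIF factors 3 were higher and 9 lower (median log2 ratio -0.96). The higher ones stood at 15.8%, near the share over all genes. PIF4, a factor that drives shade and warmth growth, had 4.12 CPM in the wounded explant, 10.8 CPM in the later control and 344 CPM at T0, 83.5 times lower (72.8 to 96.2). PIF5 (PIL6) was 9.09 times lower and HFR1, which blocks PIF factors, 55.8 times. The bZIP factors HY5 and HYH, which act against the PIF factors in seedlings, were higher instead: HYH had 28.6 CPM in the wounded explant, 7.53 CPM in the later control and 1.42 CPM at T0, 20.1-fold higher, and HY5 was 7.13-fold higher. Of 24 BBX zinc finger factors 14 were lower and 1 higher (9 lower with library totals), with BBX28 54.7 times, BBX16 74.8 times and COL5 27.7 times lower. Many of these genes follow the time of day, and the hour of sampling is not given in the sources used here. Clock genes picked after their values were seen did differ: PRR7 had 5.54 CPM in the wounded explant, 7.02 CPM in the later control and 531 CPM at T0, GI had 8.40 CPM in the wounded explant, 4.34 CPM in the later control and 419 CPM at T0, CCA1 0.916 CPM in the wounded explant, 0.545 CPM in the later control and 32.5 CPM at T0, and LHY 5.95 CPM in the wounded explant, 3.04 CPM in the later control and 2.06 CPM at T0. The part of the sampling hour in these results was not tested.

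Among genes of auxin-linked and gibberellin-linked growth more were lower than higher. Of 56 SAUR genes, small auxin-induced proteins tied to cell expansion, 29 were lower and 10 higher, and the median log2 ratio was -1.93. The filter was passed through T0 only by 8 of the lower ones and through the explant only by 3 of the higher ones. The higher ones stood at 17.9%, close to the share over all genes. SAUR22 had 3 counts in the wounded explant, 10 in the later control and 512 at T0, and SAUR46 (AT2G37030) had 1 count in the wounded explant, 105 in the later control and 344 at T0. SAUR51 (AT1G75580) went the other way with 238 counts in the wounded explant, 220 in the later control and 7 at T0, 25.7-fold higher (12.3 to 64.5). Among 25 Aux/IAA repressors of auxin response 16 were lower and 2 higher (median log2 ratio -1.55). IAA29 had 0.358 CPM in the wounded explant, 0.943 CPM in the later control and 72.9 CPM at T0, 203 times lower, and IAA6 was 64.0 times lower. IAA28 and IAA27 (listed as PAP2) were 5.96-fold and 2.51-fold higher. Of 19 gibberellin genes 3 were higher and 9 lower, 2 of these 9 past the filter through T0 only. The higher ones stood at 15.8%, near the share over all genes. GA1, the first enzyme of the pathway, had 0 counts in the wounded explant, 21 in the later control and 65 at T0. It was at least 28.7 times lower, while the DELLA repressor RGL2 was 7.05-fold higher. Brassinosteroid genes were 1 of 18 higher and 3 lower, the lower ones at 16.7%, near the share over all genes. The synthesis enzyme CPD was 4.36 times and the receptor BRI1 3.31 times lower. Among 26 TCP and GRF growth regulators 2 were higher and 8 lower, with GRF3 17.4 times lower (14.8 to 20.6).

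Aquaporins, the water channels of plant membranes, split by member: of 28 tested 8 were higher and 8 lower. Of the higher ones 2 passed the filter through the explant only. Their summed share was 0.295% in the wounded explant, 0.521% in the later control and 0.591% at T0, and abundant leaf channels were among the lower ones. DELTA-TIP, a vacuolar channel, had 85.0 CPM in the wounded explant, 776 CPM in the later control and 1192 CPM at T0, 14.03 times lower. The plasma membrane channel PIP3 had 88.9 CPM in the wounded explant, 602 CPM in the later control and 655 CPM at T0, 7.37 times lower. NIP5;1, known as a boric acid channel of roots, had 19.0 CPM in the wounded explant, 0.860 CPM in the later control and 0.264 CPM at T0, 71.9-fold higher (38.9 to 150.3).

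The listed genes of protein synthesis outside the plastid leaned to the higher side. Of 57 cytosolic ribosomal protein genes, taken by names of the eukaryotic type, 27 were higher and 2 lower (median log2 ratio 0.99). The list of 63 genes held 0.693% of the counts in the wounded explant, 0.440% in the later control and 0.281% at T0. Ribosomal proteins named otherwise are not in it. The spread was narrow, with the quartiles of the log2 ratios at 0.74 and 1.27. AT2G37600, an L36e family gene, had 49.6 CPM in the wounded explant, 34.0 CPM in the later control and 14.1 CPM at T0. The 2 lower members, AT5G15260 and AT5G19025, belong to an L34e superfamily; AT5G15260 did not pass with library totals. Of the plastid ribosomal proteins 1 of 17 was higher and 0 were lower, with a median log2 ratio of -0.44. Of 19 ribosome biogenesis factors 8 were higher and 0 lower. The nucleolar proteins FIB2 and NOP56, which guide the modification of ribosomal RNA, had 51.2 and 135 CPM in the wounded explant, 23.8 and 77.9 CPM in the later control and 2.45 and 17.3 CPM at T0, making them 20.9-fold and 7.81-fold higher.

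Genes of folding in the endoplasmic reticulum leaned to the higher side as well, in 9 of 21 genes against 1 lower. BIP1 and BIP2, chaperones that are near-identical copies, were 5.24-fold and 5.78-fold higher, and the disulfide isomerase PDIL2-2 15.4-fold (12.2 to 19.5). The 1 lower gene was BZIP28, a factor of the unfolded protein response, 2.19 times lower, which did not pass with library totals. Of 35 heat shock genes 10 were higher and 3 lower. The higher ones named by the rule are organelle chaperones, the plastid HSP90.5 (CR88) at 10.3-fold and the HSP60 genes HSP60-2 and HSP60 at 6.97-fold and 6.36-fold. The 3 lower ones were the heat shock factors HSFA8, HSFA3 and HSFA1B (HSF3). Proteasome subunits mostly passed in neither direction, with 2 of 40 higher and 0 lower.

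Respiratory carbon metabolism leaned to the higher side. Of 17 tricarboxylic acid cycle genes 11 were higher and 1 lower. Their log2 median was 1.22, and their share was 0.458% in the wounded explant, 0.273% in the later control and 0.247% at T0. SDH1-1, the flavoprotein subunit of succinate dehydrogenase, had 332 CPM in the wounded explant, 123 CPM in the later control and 87.9 CPM at T0, 3.78-fold higher (3.64 to 3.92). The cytosolic fumarase FUM2 was the lower one, 3.29 times. Glycolysis had 12 of 26 higher and 2 lower (median log2 ratio 0.92). GAPCP-1 and ENO1, plastid forms of glycolytic enzymes, were 19.4-fold and 16.4-fold higher. The aldolase FBA5 had 38.5 CPM in the wounded explant, 316 CPM in the later control and 1030.4 CPM at T0, 26.8 times lower. Beta-oxidation and the glyoxylate cycle had 3 of 18 higher and 2 lower, near the share over all genes. SDP1, the lipase that starts the breakdown of stored oil, was 5.21 times lower, and LACS7, which activates fatty acids in the peroxisome, was 4.80-fold higher. Alternative respiration had 3 of 10 higher and 2 lower, with the oxidase AOX1A 3.08 times lower.

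The cell wall lists divided by the kind of protein. Of 10 extensin and prolyl hydroxylase genes tested 5 were higher and 2 lower, and their share of the counts was 0.483% in the wounded explant, 0.0787% in the later control and 0.0442% at T0. The ratio of the shares was 10.9, and 0.955 without the 100 most abundant genes of either library, which leaves out EXT3 and EXT4. P4H2, which hydroxylates the prolines of extensins, had 53.5 CPM in the wounded explant, 25.6 CPM in the later control and 8.71 CPM at T0, 6.14-fold higher. The leucine-rich repeat extensins LRX3 and LRX2 were 4.72 and 7.95 times lower. Class III peroxidases, which cross-link wall proteins and phenolics with hydrogen peroxide, had 28 of 40 tested members higher, 13 of these past the filter through the explant only, and 4 lower. Their median log2 ratio was 3.77, or 3.65 with genes at 0 counts set to their bound. Prx37 had 263 CPM in the wounded explant, 2.03 CPM in the later control and 0.158 CPM at T0, 1665-fold higher (765 to 4537). AT2G38380, a further peroxidase, had 1631 counts in the wounded explant, 6 in the later control and 0 at T0, at least 410.4-fold higher. Laccases, which oxidise lignin precursors, had 4 of 12 higher, all 4 past the filter through the explant only, and 4 lower: LAC7 had 4062 counts in the wounded explant, 4 in the later control and 1 at T0, whereas the stem lignin laccases IRX12 and LAC17 were 11.7 and 7.14 times lower.

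Among proteins of wall expansion more were lower than higher. Of 48 xyloglucan and expansin genes 10 were higher and 17 lower, the higher ones at 20.8%, near the share over all genes. Of the 10, 2 passed the filter through the explant only. TCH4, a touch-induced xyloglucan enzyme, had 20.2 CPM in the wounded explant, 199.99 CPM in the later control and 749 CPM at T0, 37.1 times lower (34.8 to 39.5), and the expansin EXPA8 was 32.5 times lower. EXPA10 stood at 225 CPM in the wounded explant, 56.8 CPM in the later control and 10.6 CPM at T0, 21.3-fold higher. Cellulose synthases had 8 of 33 higher and 14 lower, among the lower ones IRX1 and IRX3 of the secondary wall, 6.51 and 5.89 times. Arabinogalactan proteins had 6 of 41 higher (10 with library totals) and 15 lower. The higher ones stood at 14.6%, near the share over all genes, and 2 of them passed the filter through the explant only. FLA9, a lower one, had 31.0 CPM in the wounded explant, 291 CPM in the later control and 169 CPM at T0. In pectin methylesterases and their inhibitors 18 of 53 were higher, 6 of these past the filter through the explant only. The lower ones were 11, 2 of these past it through T0 only. AT2G45220 had 15358 counts in the wounded explant, 54 in the later control and 4 at T0, 2898-fold higher (1132 to 10638). Pectin lyases and polygalacturonases had 14 of 57 higher, 10 of these past the filter through the explant only, and 16 lower.

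Part of the higher members of these pectin and arabinogalactan lists are genes known from anthers and pollen, such as PGA4, VGD1, AGP6 and AGP23. A list of 53 anther and pollen genes, drawn up after these values were seen, had 30 tested, of which 23 were higher, but 21 of these 23 reached the count filter through the explant only, so the filter largely fixed that split. Summed without any filter, its genes stood at 82.0 CPM in the wounded explant, 27.9 CPM in the later control and 21.4 CPM at T0, and of the 53 genes 5 were at 0 counts in the wounded explant, 16 in the later control and 34 at T0. Without those genes the pectin lyases and polygalacturonases had 6 of 48 higher and 16 lower, the pectin methylesterases 16 of 51 higher and 11 lower, and the arabinogalactan proteins 4 of 38 higher and 15 lower. The part of other tissue in these counts was not tested.

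Defence and detoxification families were among the lists with the most members higher. Of 18 pathogenesis-related proteins, chitinases and glucanases tested 16 were higher, 4 of these past the filter through the explant only, and 1 lower. The median log2 ratio was 6.91, or 6.31 with genes at 0 set to their bound, and the share of the counts was 0.105% in the wounded explant, 0.0173% in the later control and 0.00445% at T0. PDF1.3, a defensin, had 146 CPM in the wounded explant, 1.803 CPM in the later control and 0.211 CPM at T0, 691-fold higher (351 to 1602). OSM34, an osmotin-like protein, had 1926 counts in the wounded explant, 2 in the later control and 0 at T0. The thionin THI2.2 was the 1 lower member, with 0.458 CPM in the wounded explant, 1.74 CPM in the later control and 31.8 CPM at T0.

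Glutathione transferases, which tag reactive compounds for removal, had 17 of 24 tau members and 8 of 11 phi members higher and 0 lower in both classes. Of these, 4 tau members and 1 phi member passed the filter through the explant only. GSTF7 had 282 CPM in the wounded explant, 13.1 CPM in the later control and 6.15 CPM at T0, 45.9-fold higher (40.3 to 52.4), and GSTU8 was 185-fold higher. Glycosyltransferases of the UGT family had 25 of 51 higher and 3 lower, and cytochrome P450s 47 of 137 higher and 19 lower, the lower ones at 13.9%, close to the share over all genes. Past the filter through the explant only were 4 of the 25 and 10 of the 47. Of the 19 lower P450s 2 passed it through T0 only. Among the P450s, CYP71A12 of indole metabolism had 60.7 CPM in the wounded explant, 1.55 CPM in the later control and 0.0791 CPM at T0. On the lower side CYP94B3 and CYP94C1, which inactivate jasmonoyl-isoleucine, were 40.3 and 15.2 times lower. Of 10 tryptophan synthesis genes 6 were higher and 0 lower, with TSA1 at 149 CPM in the wounded explant, 53.3 CPM in the later control and 35.9 CPM at T0, 4.16-fold higher, and of 17 camalexin and indolic glucosinolate genes 7 were higher and 0 lower.

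Regulatory families of defence leaned to the higher side. Of 54 WRKY factors 28 were higher, 9 of these past the filter through the explant only, and 2 lower (median log2 ratio 1.25). WRKY31, WRKY61 and WRKY72, which passed in that way, had 1700, 787 and 956 counts in the wounded explant. They had 13, 0 and 11 in the later control and 0 each at T0. WRKY22 went the other way, 5.24 times lower. Of 36 cysteine-rich receptor kinases 17 were higher, 3 of these past the filter through the explant only, and 4 lower. CRK27 was 91.0-fold higher (41.6 to 249). NADPH oxidases and antioxidant enzymes had 8 of 25 higher, 3 of these past the filter through the explant only, and 3 lower. The lower ones stood at 12%, near the share over all genes. The oxidases RBOHB and RBOHA reached only 35 and 28 counts in the wounded explant, with 0 and 4 in the later control and 0 each at T0, and the catalase CAT1 was 3.24 times lower.

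In nitrate uptake and assimilation 13 of 26 genes were higher and 2 lower, and the share was 1.22% in the wounded explant, 0.661% in the later control and 0.803% at T0. NRT2.1, a high-affinity nitrate transporter, had 1140 counts in the wounded explant, 4 in the later control and 12 at T0, 71.7-fold higher (40.9 to 139). Its partner protein NRT3.1 (WR3) was 31.2-fold higher and NRT1.8, which takes nitrate back from the xylem sap, 65.1-fold. In sulfate uptake and assimilation 15 of 25 were higher and 0 lower (median log2 ratio 1.52). The transporter SULTR1;2 had 144 CPM in the wounded explant, 15.5 CPM in the later control and 3.38 CPM at T0, 42.7-fold higher, and the APS reductase APR3 had 145 CPM in the wounded explant, 144 CPM in the later control and 19.8 CPM at T0. SULTR1;2 stood highest in the explant, while APR3 was level in the explant and the later control. Phosphate genes were 8 of 19 higher and 2 lower. PHT1;1, a phosphate transporter with a near-identical copy, had 8182 counts in the wounded explant, 9 in the later control and 3 at T0, and PHT1;4 was 36.0-fold higher.

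Iron genes went both ways, 10 of 33 higher, 4 of these past the filter through the explant only, and 13 lower. NAS1, which makes the metal chelator nicotianamine, had 189 CPM in the wounded explant, 4.51 CPM in the later control and 0.211 CPM at T0, 897-fold higher (455 to 2079), and the citrate exporter FRD3 had 1882 counts in the wounded explant, 17 in the later control and 0 at T0. The iron-deficiency factors bHLH100 and bHLH101 had 0 counts in the wounded explant, 946 and 536 in the later control and 60 and 175 at T0. The ferric reductase FRO6 of leaves was 8.58 times lower. Among 37 sugar transporters 6 were higher and 9 lower (9 and 6 with library totals). The higher ones stood at 16.2%, near the share over all genes. STP1, a hexose importer, had 60.7 CPM in the wounded explant, 485 CPM in the later control and 1754 CPM at T0. It was 28.9 times lower (27.9 to 29.96), while the sucrose carrier SUC1 was 4.18-fold higher. Of 33 UMAMIT amino acid transporters 14 were higher, 3 of these past the filter through the explant only, and 3 lower. UMAMIT28 was 170.3-fold and UMAMIT17 21.2-fold higher. UMAMIT36 had 1 count in the wounded explant, 2 in the later control and 55 at T0, 72.9 times lower (12.5 to 2930). It passed the filter through T0 only. ABC transporters had 33 of 99 higher and 9 lower. Of the 33, 4 passed the filter through the explant only, and of the 9, 2 through T0 only. ABCG37 had 233 CPM in the wounded explant, 4.76 CPM in the later control and 1.87 CPM at T0, 125-fold higher (98.6 to 159.5). The auxin transporter ABCB19 was 3.54 times lower.

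Surface lipid genes went both ways. Cutin synthesis had 1 of 17 higher, past the filter through the explant only, and 5 lower (median log2 ratio -0.94). GPAT8 had 15.7 CPM in the wounded explant, 65.9 CPM in the later control and 116 CPM at T0, 7.36 times lower. The share of the list was 0.0671% in the wounded explant, 0.112% in the later control and 0.107% at T0. Wax synthesis had 2 of 22 higher, all past the filter through the explant only, and 5 lower, with the elongase KCS16 100.4 times lower. Suberin synthesis, the lipid barrier of roots and wounds, had 8 of 14 tested members higher, 3 of these past the filter through the explant only. The 2 lower ones, at 14.3%, were near the share over all genes. The median log2 ratio was 2.55. Its share of the counts was lower, like that of cutin, at 0.0183% in the wounded explant, 0.0325% in the later control and 0.0321% at T0. The higher members were scarce, such as MYB41 with 34 counts in the wounded explant, 0 in the later control and 0 at T0, and KCS2 with 9.50 CPM in the wounded explant, 0.880 CPM in the later control and 1.00 CPM at T0. The abundant elongase KCS20 was 2.94 times lower. Lipid transfer proteins had 8 of 15 higher and 0 lower: EARLI1 had 828 CPM in the wounded explant, 86.6 CPM in the later control and 0.976 CPM at T0, 848-fold higher, and LTP3 had 1242 counts in the wounded explant, 320 in the later control and 0 at T0.

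Cold and osmolyte genes of the T0 leaf were mostly lower. Of 25 dehydrins, LEA and cold-regulated genes 20 were lower and 0 higher, with a log2 median of -2.23 and a share of 0.199% in the wounded explant, 0.193% in the later control and 0.814% at T0. CBF2, a factor of cold acclimation, had 0.896 CPM in the wounded explant, 0.168 CPM in the later control and 56.9 CPM at T0, 63.5 times lower (47.3 to 87.3). The dehydrin LTI30 was 27.6 times lower and the neighbours CBF1 and CBF3 (DREB1A) 17.4 times each. In all of these CBF genes both day 2 libraries stood far under T0. Galactinol, raffinose and trehalose genes had 15 of 22 lower, 2 of these past the filter through T0 only, and 2 higher. GolS3, which starts raffinose synthesis in the cold, had 2 counts in the wounded explant, 1 in the later control and 1156 at T0. TPS11 and TPS8, class II trehalose phosphate synthase genes, were 21.5 and 9.998 times lower, and TPS5 of the same class was 3.85-fold higher. In proline metabolism P5CS1, the synthesis enzyme, was 9.59 times lower, with 72.6 CPM in the wounded explant, 99.0 CPM in the later control and 696 CPM at T0. Abscisic acid genes had 3 of 31 higher and 7 lower (median log2 ratio -0.50). ABF1, a lower one, had 33.3 CPM in the wounded explant, 31.1 CPM in the later control and 104 CPM at T0, 3.11 times lower. The phosphatase HAI1 went the other way, with 35.0 CPM in the wounded explant, 2.66 CPM in the later control and 6.86 CPM at T0.

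Sugar starvation genes, known to be induced in darkness and by lack of sugar, were lower in the explant in 13 of 18 cases and higher in 2, with a median log2 ratio of -1.99. They made up 0.132% of the counts in the wounded explant, 0.260% in the later control and 0.753% at T0, a share 5.69 times lower, or 3.48 times without the 100 most abundant genes of either library. SEN1 (DIN1) had 49.2 CPM in the wounded explant, 149 CPM in the later control and 712 CPM at T0, 14.5 times lower (13.9 to 15.1), and EXL1 (PHI-1) 16.0 times. DIN11, an oxygenase family member, went the other way with 109 CPM in the wounded explant, 1.93 CPM in the later control and 1.398 CPM at T0, 77.9-fold higher. Senescence proteases and regulators divided, with 10 of 25 higher and 5 lower. Of the 10, 2 passed the filter through the explant only. SAG13 had 1061 counts in the wounded explant, 344 in the later control and 0 at T0. ORS1 (AT3G29035) had 508 in the wounded explant, 52 in the later control and 2 at T0. The copper protein SAG14 (BCB) had 44.5 CPM in the wounded explant, 9.31 CPM in the later control and 284 CPM at T0. Autophagy genes mostly passed in neither direction: 1 of 29 was higher, ATG8B at 2.65-fold (2.35 to 2.998). The 4 lower ones, at 13.8%, were close to the share over all genes, with ATG8E 4.42 times lower. With library totals 2 were lower.

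**Figure D4:**
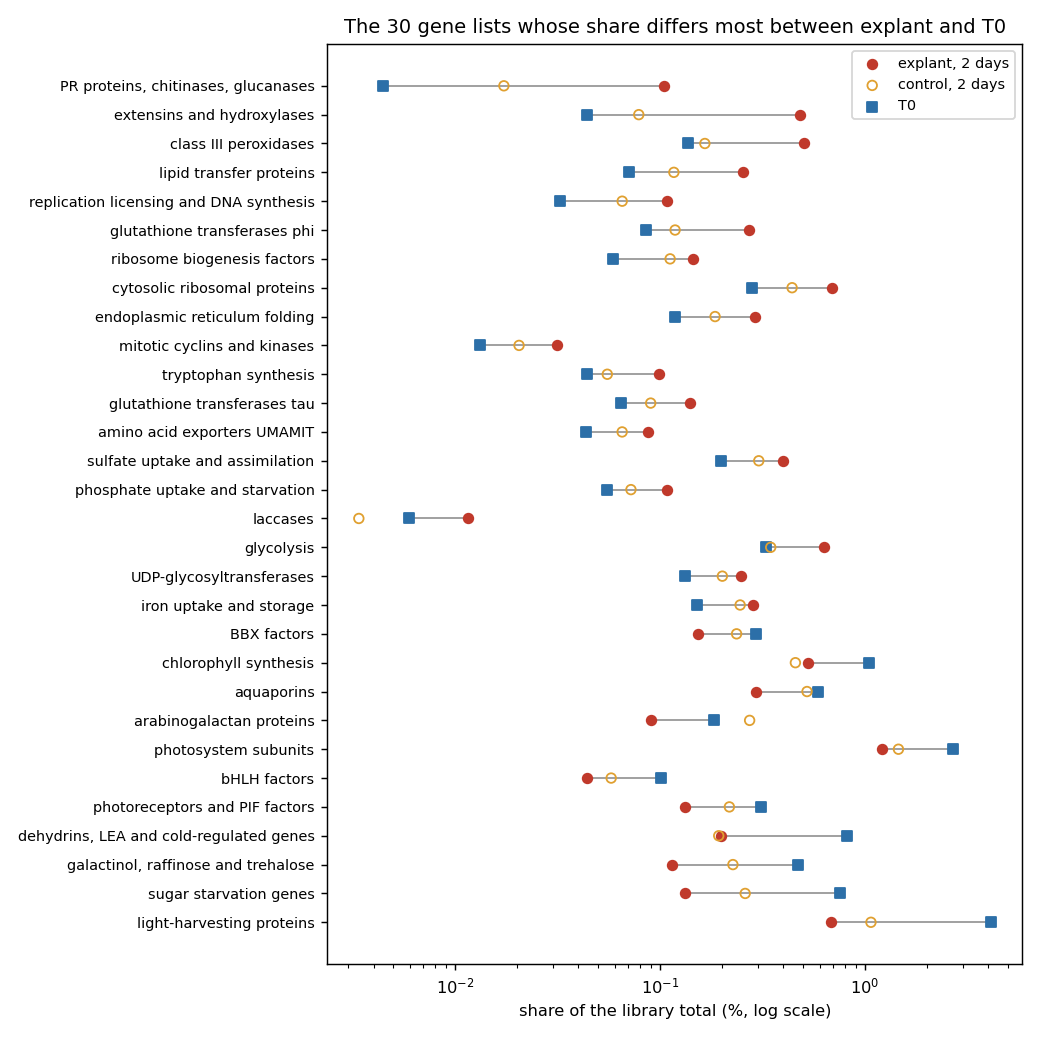
Points give the summed share of the library total, in percent on a log axis, of the 30 gene lists whose share differed most between explant and T0: explant (red), later control (open yellow) and T0 (blue squares). Pathogenesis-related proteins stand at 0.105% in the explant against 0.00445% at T0 at the top, and light-harvesting proteins at 0.684% against 4.11% at the bottom.

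Most DNA synthesis genes were higher. In replication licensing and DNA synthesis 28 of 43 genes were higher and 0 lower; the median log2 ratio was 1.77 and the share was 0.108% in the wounded explant, 0.0653% in the later control and 0.0325% at T0. RNR1, the large subunit of ribonucleotide reductase, had 134 CPM in the wounded explant, 62.1 CPM in the later control and 19.1 CPM at T0, 7.04-fold higher (6.52 to 7.61). The single-strand binding proteins RPA3A (AT3G52630) and RPA1D (RPA70D) were 12.8-fold and 9.22-fold higher. Histones had 21 of 42 higher and 1 lower; the H3 genes AT5G10390 and AT5G10400 were 5.58-fold and 5.42-fold higher. Mitotic genes had 11 of 38 higher and 1 lower (22 higher with library totals), and their median log2 ratio was 1.12. CDKB1;1, a kinase of the G2 phase, had 4.30 CPM in the wounded explant, 1.78 CPM in the later control and 0.791 CPM at T0, 5.43-fold higher, and the S phase cyclin CYCA3;1 was 7.24-fold higher. D-type cyclins and CDK inhibitors had 7 of 25 higher (12 with library totals) and 3 lower, the lower ones at 12%, near the share over all genes. The inhibitor ICK6 was 12.6-fold higher and CYCD1;1 5.30 times lower. Tubulins and actins had 0 of 21 higher and 3 lower, the lower ones at 14.3%, close to the share over all genes. Among them TUB8 had 21.9 CPM in the wounded explant, 96.7 CPM in the later control and 129 CPM at T0.

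The transcription factor families leaned in different directions. MYB factors had 33 of 72 higher, 15 of these past the filter through the explant only, and 11 lower. The lower ones stood at 15.3%, near the share over all genes. MYB45 had 1695 counts in the wounded explant, 1 in the later control and 0 at T0. MYB38 (RAX2) had 745 in the wounded explant, 8 in the later control and 1 at T0, while MYB73 was 8.17 times lower. NAC factors had 21 of 71 higher, 4 of these past the filter through the explant only, and 7 lower. NAC047 had 42.3 CPM in the wounded explant, 5.28 CPM in the later control and 1.27 CPM at T0, 33.4-fold higher (25.1 to 45.5). NAC071, known from tissue reunion after cutting, had 235 counts in the wounded explant, 63 in the later control and 0 at T0. On the lower side NAC055 (AT3G15500) had 3.60 CPM in the wounded explant, 4.70 CPM in the later control and 30.3 CPM at T0. ERF factors leaned to the lower side, with 6 of 45 higher (10 with library totals) and 18 lower. So did bHLH factors, with 2 of 26 higher and 13 lower. Of the 6 ERF genes called higher, 2 passed the filter through the explant only. ORA59, an ERF that joins ethylene and jasmonate signals, had 14.3 CPM in the wounded explant, 2.05 CPM in the later control and 0.633 CPM at T0, 22.5-fold higher, and TT8, a bHLH of anthocyanin synthesis, was 41.8-fold higher (14.05 to 204.6). Of 11 WOX and KNOX homeobox genes 6 were higher, 2 of these past the filter through the explant only, and 0 lower. WOX2 had 5.56 CPM in the wounded explant, 1.698 CPM in the later control and 1.11 CPM at T0. LBD factors had 6 of 17 higher, 2 of these past the filter through the explant only, and 4 lower, 2 of these through T0 only. ASL1 had 681 counts in the wounded explant, 2 in the later control and 1 at T0. Leaf polarity genes had 2 of 20 higher and 3 lower, the lower ones at 15%, near the share over all genes. The abaxial factor YAB1 (AFO) was 5.02 times lower and AS2, of the adaxial side, 3.98-fold higher (2.51 to 6.60).

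Levels of cell type markers were set beside these results, and they cannot tell fewer cells of a type from less RNA per cell. The labelled tissue showed its markers in every library, with 4 photosynthetic markers at 4240.4 CPM in sum in the wounded explant, 6801 CPM in the later control and 10000 CPM at T0. Of these 4 markers 2 were lower. Their sum includes LHCB1.2 (CAB3), already named for its loss in share, with 229 CPM in the wounded explant, 367 CPM in the later control and 3377 CPM at T0. RBCS1A, also among them, did not pass. Epidermis markers summed to 904 CPM in the wounded explant, 1025 CPM in the later control and 1090.1 CPM at T0, with 2 of 7 lower and 0 higher. Xylem markers stood at 24.97 CPM in the wounded explant, 48.2 CPM in the later control and 155 CPM at T0, with 6 of 9 lower, and phloem markers at 565 CPM in the wounded explant, 1221 CPM in the later control and 996 CPM at T0, with 2 of 8 lower. The xylem list shares IRX1, IRX3 and IRX12 with the wall lists above, in which they were lower too. Guard cell, stomatal lineage and trichome lists had 2 of 7, 1 of 3 and 1 of 6 tested members lower and 0 higher. The trichome gene GL1 was at 0 in every library. Procambium markers stood at 99.4 CPM in the wounded explant, 85.4 CPM in the later control and 98.6 CPM at T0. Of 4 tested, WOX4 was 3.64-fold higher (2.98 to 4.49) and BHLH32 3.15 times lower. Shoot meristem markers stood at 0.956 CPM in the wounded explant, 0.335 CPM in the later control and 0.158 CPM at T0. Only 1 of these 5 was tested, and it passed in neither direction. Root founder and primordium markers summed to 70.8 CPM in the wounded explant, 66.4 CPM in the later control and 35.5 CPM at T0. Of the 10 markers 4 were not tested, and 3 of the 4 called higher passed the filter through the explant only, so their count is no measure of such tissue. WOX11 and LBD16 had 58 and 369 counts in the wounded explant, with 0 in the later control and 0 at T0, and PLT3 (AIL6) was 2.92-fold higher (2.32 to 3.71), while LBD29, PLT1 and PLT2 were at 0 everywhere. Root hair markers held at most 0.0597 CPM in sum, with EXPA7, RSL4 and RHD6 at 0 in every library. The part of tissue make-up in the other results was not tested.

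**Figure D5:**
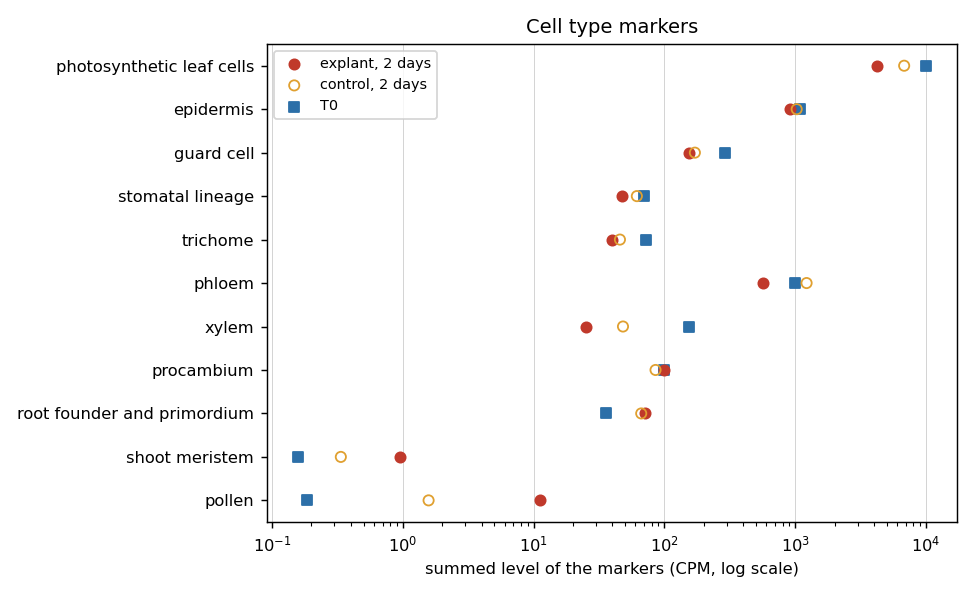
Points give the summed level of each list of cell type markers, in CPM on a log axis, in the explant (red), the later control (open yellow) and T0 (blue squares); root hair markers, near 0 in all libraries, are not drawn. Xylem markers stand at 24.97 CPM in the explant against 155 CPM at T0, and pollen markers at 11.2 CPM in the explant against 0.185 CPM at T0.

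Of the 33602 genes in each library's table, 9693 were at 0 counts in the explant and 11067 at T0, whose total was also the smaller. A gene at 0 on 1 side can only be called toward the other, so its direction was fixed in advance. Of the genes called higher, 297 had 0 counts at T0, and of those called lower, 30 had 0 counts in the explant. These counts are a description and support nothing. The first group held IMS2, of glucosinolate side-chain synthesis, with 1871 counts in the wounded explant, 218 in the later control and 0 at T0, and UGT76B1, which glucosylates isoleucic acid, with 1508 in the wounded explant, 18 in the later control and 0 at T0. Of the 297 genes 18 were on the anther and pollen list. In the second group DOG1, a regulator of seed dormancy, had 0 counts in the wounded explant, 0 in the later control and 960 at T0, at least 424 times lower in the explant, and TPS03, a terpene synthase, had 0 in the wounded explant, 3 in the later control and 634 at T0. For both genes the loss was shared by the later control. RL6, a RADIALIS-like factor, had 0 counts in the wounded explant, 168 in the later control and 185 at T0, so that here the explant stood apart from both controls.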

How the data were processed

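RNA from 3 Arabidopsis leaf libraries, 1 per group, had been counted per gene, and the deposited values are whole-number read counts that the authors did not normalize. FastQC, HTSeq and DESeq, and TAIR10 as the build, are named per the submitters' processing notes, with no version or role. An aligner, annotation release, strand setting or kit: not given in the sources used here. Each library had a table of 33602 genes, of which 8455 were at 0 in all and the 279 organelle genes at 0 throughout. Reads assigned to more than 1 gene made up 2.12%, 2.18% and 2.17% of the reads in the explant, the later control and T0, and reads in no gene 0.700%, 0.763% and 0.677%; these lines were left out of the totals.

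Counts were scaled by TMM over the 3 libraries (edgeR 4.0.16, R 4.3.3), with a filter of 30 counts over the libraries and a prior count of 0.5 for log2 ratios. A ratio's exact Clopper-Pearson 95% interval came from the binomial split of a gene's counts, and a call needed the interval beyond 2-fold; with 1 library per group the spread is not known and no model was fitted. A bound's 3 counts, per library, equal 0.0597 CPM in the explant, 0.0629 CPM in the later control and 0.0791 CPM at T0. Whether reads stand for independent molecules is not known here, and intervals cover counting error of reads only. Calls were tested on simulated counts that carry counting error only, so that check says nothing about spread between replicates. The later control enters the scaling, the filter and the side values only.

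Gene names, families, exon lengths, overlaps and copies came from the RefSeq annotation of TAIR10.1, matched by locus tag for 32835 genes; as this is not the build the submitters name, no coordinate or sequence is given. Copies are matches of at least 95% identity over 100 bases (blastn 2.17.0). Over 20% of exon bases also lie in another gene model for IAA3 (SHY2), FLA3, COR15B, LHCB2.3, XTH15, GPX7, LAC17 and P5CDH, and IGMT2, ASB1, NIP3;1, PPME1, AT5G07410, AT3G07850 and TUA3 have near-identical copies; their counts are uncertain.

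The comparison, the 75 gene lists and the marker lists were chosen with earlier results of these data known. Named are the 10 genes with the largest gain and the 10 with the largest loss in share of the library, up to 3 higher and 3 lower genes per list whose nearer interval bound lies farthest from 1, the 8 most abundant genes at 0 in 1 library on each side, and marker genes; the text gives a part. The anther and pollen list, its named genes and the clock genes were chosen after their values were seen. Further software was DESeq2 1.42.0 (for size factors alone), matplotlib 3.10.9, pandas 2.3.3, scipy 1.17.1, numpy 2.4.6 and Python 3.11.15. Alternatives were DESeq2 size factors, library totals, TMM from the compared pair or outside the 100 most abundant genes, thinning all libraries to one depth, a wider interval, a 4-fold or 1.5-fold limit, filters of 1 and 150 counts, a prior count of 5 and shares without the most abundant genes.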

Additional observations from a re-analysis of the deposited data

How the results depend on the processing

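The counts of genes higher and lower stayed within 1.5 times of 3570 and 2681 with DESeq2 size factors (3548 and 2698), library totals (4646 and 1983), TMM from the compared pair (3570 and 2681), both filters, a wider interval (3066 and 2337) and thinning (3538 and 2649). A 1.5-fold limit gave 4307 lower, and a 4-fold limit 1582 higher and 980 lower. Of 419 named genes with a ratio, 400 kept their call with library totals, 15 lost it and 4 gained one; a 4-fold limit removed 101 calls and a filter of 150 counts 46, by construction. No ratio of a called gene changed direction. By library totals 21 of the 75 lists had a count moved by over 1.5 times and 5 medians changed sign (carotenoid synthesis, pectin lyases, wax synthesis, LBD factors, leaf polarity). The counts not given so above were 1 higher of the light-harvesting, 1 of the chlorophyll synthesis and 4 of the proteasome genes; 5 of beta-oxidation, 4 of galactinol and trehalose, 5 of abscisic acid and 5 of polarity; and 1 lower of nitrate, 3 of wax, 4 of NAC and 3 of senescence. The cause was not tested. Without the 100 most abundant genes of either library the share of light-harvesting genes was 1.35 times lower in the explant, over the few members left, and that of sugar starvation genes 3.48 times. No paired analysis was possible because each group has 1 library, and for the same reason no replicate could be left out. Ratios of genes with few counts on either side are limited by depth, as their intervals show.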

Other observations

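Several neighbouring genes shared a direction in the explant over T0, described here with no test. Genes not tested were passed over, and rows can hold members past the filter through 1 library only. Between AT1G51820 and AT1G51915, 8 tested genes in a row were higher, 5 of them annotated as leucine-rich repeat kinases; AT1G51860 of this row had 1335 counts in the wounded explant, 3 in the later control and 0 at T0. A row of 7 higher genes from AT1G13470 to AT1G13550 encodes proteins of the uncharacterised DUF1262 family. The lipid transfer-like genes AZI1, EARLI1 and AT4G12490 lie in a row of 5 higher genes, and AZI1, known from systemic defence priming, had 293 CPM in the wounded explant, 9.85 CPM in the later control and 4.30 CPM at T0. In AT1G26380 to AT1G26420, 4 berberine bridge enzyme-like genes were higher, with AT1G26380 at 81.7-fold (41.3 to 189.9). The glycine-rich genes GRP14, GRP17, GRP16, GRP19 and GRP20, known from the pollen coat, formed a row of 5 tested genes. GRP17 had 210 counts in the wounded explant, 10 in the later control and 0 at T0. All but GRP20 passed the filter through the explant only, which tilts them toward a higher call, so this row supports nothing. GRP18, which lies between them, was not tested, with 21 counts in the wounded explant, 1 in the later control and 0 at T0. On the lower side, 5 SAUR genes and a neighbour from AT1G29420 to AT1G29465 were lower in a row of 6, SAUR63 with 1.23 CPM in the wounded explant, 2.62 CPM in the later control and 14.6 CPM at T0, as were 5 thioredoxin-like genes from AT4G15660 to AT4G15700. Copies in such rows can share reads. By chromosome, between 17.1% and 18.6% of the tested genes were higher and between 12.4% and 14.3% lower.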
